A study of Drosophila melanogaster with 2 samples.

Results

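Across the genome, Mes4-GFP peaks were dense at transcription start sites (TSSs) and sparser far from them. The 318 peaks described here were chosen by a distance between these. They are the peaks of the optimal IDR list, the set that the authors kept after comparing replicates for irreproducible discovery, whose summit lies 501 to 1000 bp from the nearest annotated TSS in the fly genome build dm6. They made up 9.92% of the list, whose 2889 other peaks were 1721 within 500 bp of a TSS and 1168 over 1000 bp from all of them, called distal below. Within that list, whose peaks were kept for their strength, position decided which peaks are members. The study had 1 group and no contrast: 2 biological replicates, numbered 3 and 4, of whole Drosophila melanogaster embryos of both sexes, 0 to 16 hours old. All of them carry a stable transgene for Mes4 with GFP at its C-terminus. Their chromatin was sonicated to pieces of 200 to 800 bp, and an antibody to GFP pulled down the fusion protein. Both replicates come from 1 tagged line, whole embryos mix all cell types, and embryos without the tag were not analysed here. The peaks of both replicates were called against the same control.

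A TSS is the base at which a transcript begins, and the sequence next to it, the core promoter, positions RNA polymerase II. In flies many core promoters carry short elements such as the DRE, which Dref binds, Motif 1, which M1BP binds, and Motif 7. Sequence a little farther out, in the upstream flank or in the first intron, often holds enhancers or further start sites of the same gene. Mes4 is a histone-fold protein, a small protein of the structural family that also forms the histone core and several DNA-binding dimers.

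The sequences of 6 members are given first, each the summit and 100 bases to either side, on the plus strand of dm6 and read from the Release 6 RefSeq assembly. The first 3 are the strongest members, and the other 3 are the strongest members with a match to a motif that differed between distance classes. Capitals mark matches, on either strand, to DRE (TATCGATA), CGATA (the core of BEAF-32 sites, also contained in the DRE), GAGA (the GAGA factor's letters GAGAGAG), Motif 7 (CATCNCTA), the E-box CAGCTG (bound by proneural factors) and the words ACACTG and ACAGTG. The Lk6 window, chr3R:11760958-11761158, lies in an intron of Lk6, a protein kinase gene, and holds 1 GAGA match and 1 ACAGTG.
Lk6: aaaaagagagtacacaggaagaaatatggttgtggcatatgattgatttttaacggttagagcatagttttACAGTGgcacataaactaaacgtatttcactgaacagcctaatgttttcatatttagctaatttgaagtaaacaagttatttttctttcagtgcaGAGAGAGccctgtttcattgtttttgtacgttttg
The window of lncRNA:CR45643, chr3R:16222395-16222595, is intergenic, upstream of a long noncoding RNA gene, and holds ACAGTG near each end.
lncRNA:CR45643: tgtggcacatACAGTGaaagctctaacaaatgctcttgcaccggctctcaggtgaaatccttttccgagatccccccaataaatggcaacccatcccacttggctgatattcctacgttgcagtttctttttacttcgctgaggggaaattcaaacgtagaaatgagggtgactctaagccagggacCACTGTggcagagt
The window of CG9663, chr2L:3302085-3302285, lies in an intron of that gene and has a single GAGA match at its left end.
CG9663: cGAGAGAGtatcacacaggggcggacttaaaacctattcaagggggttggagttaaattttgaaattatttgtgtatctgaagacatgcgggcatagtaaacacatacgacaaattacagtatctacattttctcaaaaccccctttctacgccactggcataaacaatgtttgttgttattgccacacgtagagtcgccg
The window of Reph, a regulator of eph expression, at chr2L:3804659-3804859 lies in an intron and holds the E-box.
Reph: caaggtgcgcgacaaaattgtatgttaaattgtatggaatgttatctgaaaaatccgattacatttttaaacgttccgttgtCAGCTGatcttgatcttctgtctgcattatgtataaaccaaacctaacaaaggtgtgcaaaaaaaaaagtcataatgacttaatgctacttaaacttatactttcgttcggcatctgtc
The intergenic window of lncRNA:CR42794, chrX:5696429-5696629, has a CGATA that runs into an ACACTG, and a second ACACTG.
lncRNA:CR42794: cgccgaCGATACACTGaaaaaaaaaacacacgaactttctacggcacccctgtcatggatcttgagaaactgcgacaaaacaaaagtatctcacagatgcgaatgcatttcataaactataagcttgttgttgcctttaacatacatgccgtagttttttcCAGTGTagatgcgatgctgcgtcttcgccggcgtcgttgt
The window of Stt3A, which encodes a catalytic subunit of the oligosaccharyltransferase, at chrX:21053157-21053357 is intronic and has the DRE and Motif 7 together.
Stt3A: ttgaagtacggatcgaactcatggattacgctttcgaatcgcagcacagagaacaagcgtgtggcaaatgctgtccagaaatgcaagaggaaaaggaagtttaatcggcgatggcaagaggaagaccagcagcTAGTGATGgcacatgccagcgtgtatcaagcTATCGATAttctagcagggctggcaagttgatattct

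The members lay overwhelmingly in noncoding sequence. Introns held 213 of the 318 summits (67.0%, 95% Wilson interval 61.6 to 71.9) and intergenic sequence 71 (22.3%, 18.1 to 27.2). A further 16 summits (5.03%) were in exons of noncoding genes and 15 (4.72%) in 5′ untranslated sequence. Coding exons held 2 (0.629%, 0.173 to 2.26) and 3′ untranslated sequence 1 (0.314%). The comparison set was the 3642 weaker peaks of the same distance band, that is, peaks of the pooled relaxed list that no optimal peak overlaps. Of these, 38.6% had their summit in a coding exon and 33.9% in an intron. The difference in the coding exon share was past the threshold by Fisher's exact test, two-sided, adjusted over the 6 location classes (odds ratio 0.0101, adjusted p = 2.6e-59). With the strongest peaks of replicate 4 alone, 9 of 335 members (2.69%) and 45.4% of weaker peaks were in coding exons (odds ratio 0.0333, adjusted p = 7.1e-67, exact test), and with TSSs of protein-coding genes alone 1 of 278 was (odds ratio 0.0052). Members were more often intronic (odds ratio 3.96, adjusted p = 4.8e-30), intergenic (odds ratio 1.60, 22.3% against 15.2%, adjusted p = 0.0019) and in noncoding exons (odds ratio 1.86, 5.03% against 2.77%, adjusted p = 0.043), and less often in 3′ untranslated sequence (0.314% against 4.70%, adjusted p = 2.1e-05), by the same exact test. The 6 shares add up to the whole, so a low coding exon share raises the others, and these are not separate results. Of the summits in introns and intergenic sequence alone, 71 of 284 members and 554 of 1788 weaker peaks were intergenic. There the share was lower in members, and it was not tested. The share in 5′ untranslated sequence did not pass (4.72% against 4.89%, adjusted p = 1, exact test).

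The 2 coding exon members lay 572 bp from asRNA:CR46005, in an exon of l(3)mbn, and 688 bp from the start of Tim17b1, in that gene's own exon. Tim17b1 belongs to the family of mitochondrial inner membrane import proteins. The coding exon peak by asRNA:CR46005 had a signal value of 127 in replicate 3 and 63.4 in replicate 4, and that of Tim17b1 62.8 and 45.6. The 3′ untranslated member, 708 bp from tws, a regulatory subunit of protein phosphatase 2A, lay in TAF1B and had values of 51.2 and 41.9. Signal values are the authors' own, on a scale that is not stated, and serve here only to rank and describe peaks.

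**Figure D1:**
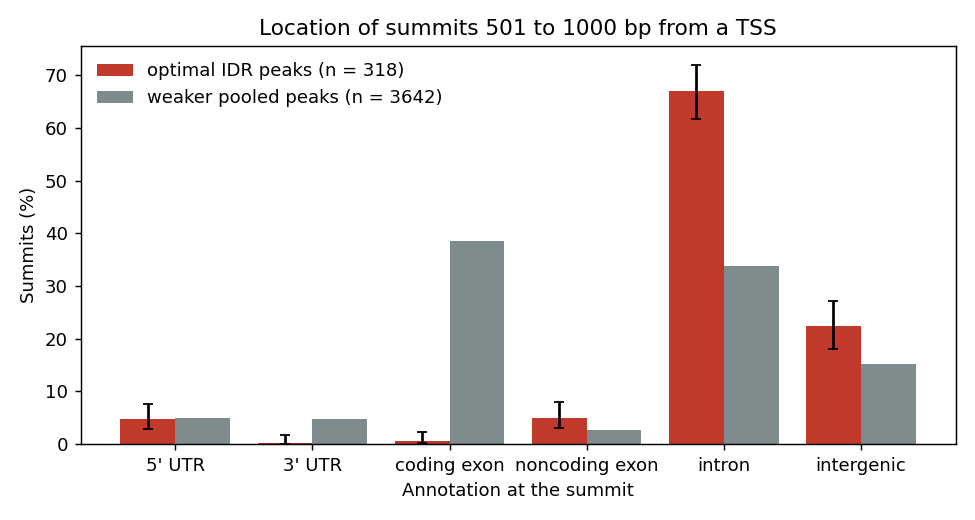
Share of summits (%) in each annotation class for the 318 optimal IDR peaks 501 to 1000 bp from a TSS (red, with 95% Wilson intervals) and for the 3642 weaker pooled peaks at the same distances (grey). Introns hold 67.0% of the red set and coding exons 0.629%, against 33.9% and 38.6% of the grey set.

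Of the 318 members, 170 (53.5%, 48.0 to 58.9) lay upstream of the nearest TSS and 148 downstream. Upstream did not mean outside a gene. For 71 of the upstream members the nearest TSS was an internal start of a longer gene, so that the summit was still inside that gene; Lk6, Reph, InR, chif and Mad are examples among the strongest. The other 99 upstream members lay outside the nearest gene. Among the 148 downstream members 131 lay inside the nearest gene, and 110 (74.3%) were in the first intron of a transcript that begins at the nearest TSS. The downstream members outside the nearest gene, 17 in number, lay past the end of the nearest gene and had the lowest median signal (98.8, against 126 to 142 for the other combinations).

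The upstream share exceeded that of weaker peaks at the same distances, 1281 of 3640 or 35.2% (Fisher's exact test, two-sided, odds ratio 2.12, p = 1.1e-09 adjusted over the 8 share tests of distance classes). Upstream bases make up 40.2% of the sequence in this band. The class of sequence moved with this result: among summits in introns and intergenic sequence, a restriction chosen after seeing the data, 162 of 284 members (57.0%) and 904 of 1788 weaker peaks (50.6%) were upstream, and the difference no longer passed (odds ratio 1.30, adjusted p = 0.076, exact test). The upstream members crowded towards the TSS, with 61 at 501 to 600 bp and 18 at 901 to 1000 bp, or 50.1 and 18.9 per Mb of upstream sequence at those distances. Downstream there were 39 and 26, or 22.5 and 17.7 per Mb.

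**Figure D2:**
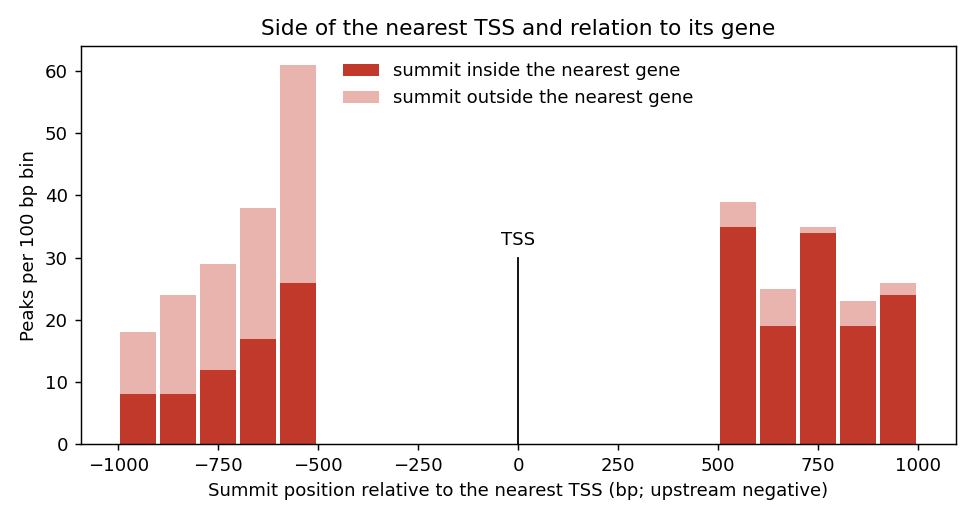
Number of member summits per 100 bp bin of position relative to the nearest TSS, upstream negative, stacked by whether the summit is inside the nearest gene (dark) or outside it (light). Downstream, 131 of 148 summits are inside the nearest gene; upstream, 71 of 170 are.

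Peak density fell steeply up to this band and more slowly within it. Optimal peaks numbered 197 per Mb of sequence in the first 100 bp from a TSS and 29.6 per Mb at 401 to 500 bp. Within the band the densities were 33.8, 22.4, 23.8, 18.4 and 18.1 per Mb in successive bins of 100 bp, and 20.5 per Mb at 1001 to 1100 bp. The band as a whole covered 13440 kb, 10.04% of the chromosome arms, and held 23.7 peaks per Mb, against 94.9 within 500 bp and 11.4 farther out. The 501 to 600 bp bin held the most members, 100, and the 901 to 1000 bp bin the fewest, 44.

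Of all 4023 pooled relaxed peaks with a summit in the band, 318 or 7.90% (7.11 to 8.78) were in the optimal list, where 10.7% of all pooled relaxed peaks were. The share was 17.4% within 500 bp (odds ratio 0.409, adjusted p = 4.1e-50, Fisher's exact test) and 7.27% among distal peaks (odds ratio 1.09, adjusted p = 0.24), and with members over 600 bp away alone the last difference turned (7.19% against 7.27%, adjusted p = 0.91, exact test). With as many of the strongest peaks of either replicate alone in place of the optimal list the difference from distal peaks passed the test, with 8.08% against 6.83% for replicate 4 alone (odds ratio 1.20, adjusted p = 0.015) and 8.68% against 7.13% for replicate 3 alone (odds ratio 1.24, adjusted p = 0.0031, exact test).

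**Figure D3:**
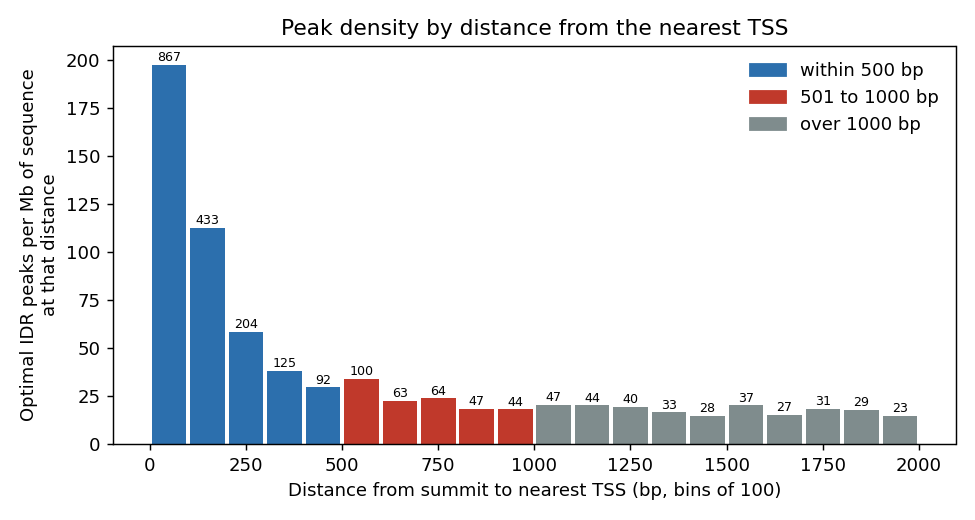
Optimal IDR peaks per Mb of sequence in bins of 100 bp of distance from the nearest TSS, with the number of peaks above each bar; red bars are the 501 to 1000 bp band. Density falls from 197 per Mb in the first bin to 18.1 at 901 to 1000 bp and is 20.5 in the bin beyond.

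The strongest member was the intronic peak of Lk6, eighth in the whole list. Its signal value was 660 in replicate 3 and 471 in replicate 4, and it ranked seventh and eighth there. The peak lay 979 bp upstream of an internal TSS, and the next optimal summit was 17217 bp away. The second, at lncRNA:CR45643, had values of 448 and 374, and that gene had another member among the 20 strongest, with 278 and 201.1. These summits were 2020 bp apart and lay on either side of the gene, the first 900 bp upstream and the other 915 bp downstream of the nearest of its TSSs. CG9663 followed with 432 and 330, CG31635 with 468 and 271, and sp3 with 372 and 278.

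Of the 5 peaks that follow in strength, that in the exon of lncRNA:CR46035 had 389 in replicate 3 and 251 in replicate 4. The peak in an intron of Reph had 351 and 267. The peak in an intron of Adf1, which encodes a sequence-specific transcription factor of the MADF family, had 293 and 277, and was the strongest member on arm 2R. LPCAT, a lysophosphatidylcholine acyltransferase gene, carried the strongest member on X, with 330 and 234. HmgZ, which encodes an HMG-box chromatin protein, had 300 and 256 at a summit that also lies in HmgD.

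The remaining members among the 20 strongest had values of 257 to 307 in replicate 3 and 168 to 230 in replicate 4. They included InR, the insulin receptor gene, with 286 and 226. RasGAP1, a negative regulator of Ras, carried the strongest member on 3L with 302 and 202. The gene chif, the fly relative of Dbf4 that chorion gene amplification needs, had 293 and 204. The gene mub, which encodes a KH-domain RNA-binding protein, had 284 and 219, and wde, a cofactor of the histone methyltransferase Eggless, had 288 and 205.2. The peak by asRNA:CR44512, in an intron of the glucose-6-phosphate dehydrogenase gene Zw, had 264 and 213. That of CG14762 had 307 and 168, and that of jp, the fly junctophilin gene, 257 and 182, while the peak of lncRNA:CR42794 had 297 and 230. Of the 20 strongest members 12 were upstream of the nearest TSS, 12 were inside the nearest gene and 5 were nearest to a noncoding RNA gene. All 20 ranked among the first 149 peaks of each replicate.

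All 318 members had a matching summit within 200 bp in the relaxed lists of both replicates. Neighbouring members could share a match, here and in the agreement counted below. Both RasGAP1 members matched the same replicate 3 summit. Both members at lncRNA:CR44331 matched 1 replicate 4 summit, and so did both at snoRNA:Me18S-G1358a. Signal values ran from 19.3 to 660 in replicate 3, with a median of 78.1, and from 15.1 to 471 in replicate 4, with a median of 53.8. Replicate 3 was higher for 289 of the 318, with a median ratio of 1.45 (0.427 to 4.85). The ranks of the members were similar in both (Spearman's rho 0.719 over 318 peaks of the same pair of libraries, against 0.727 within 500 bp and 0.683 among distal peaks), given as a description. The matching summits of replicate 3 and replicate 4 were a median of 21 bp apart.

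**Figure D4:**
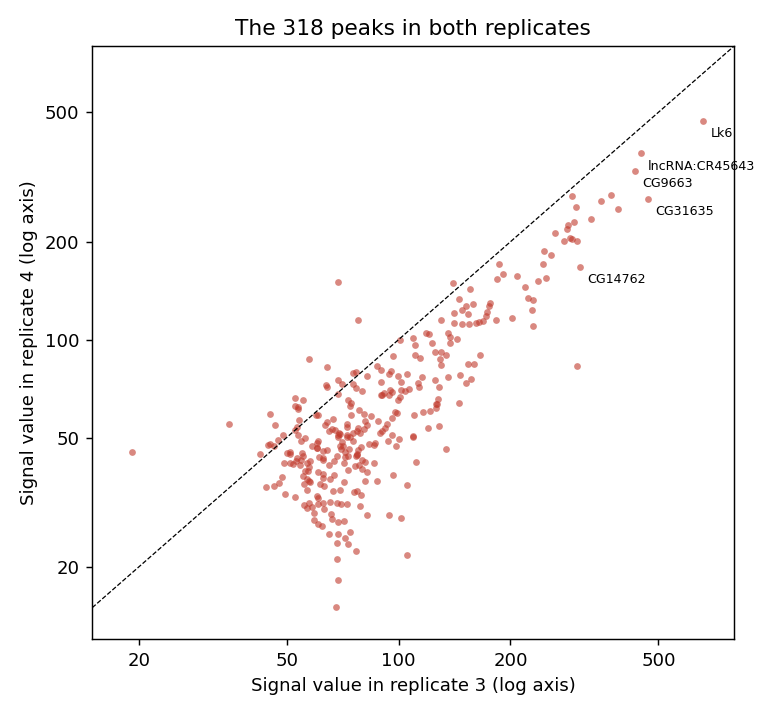
Signal value of each of the 318 peaks in replicate 3 and in replicate 4, both on log axes, with equal values along the dashed line and some of the strongest labelled by nearest gene. Most points, 289 of 318, lie below the line, and Lk6 is highest in both replicates.

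Agreement was counted as the share of peaks with a match among the strongest peaks of both replicates, taking as many from each as the optimal list holds. It held for 253 of 318 members (79.6%, 74.8 to 83.6), where 74.4% of all optimal peaks had it. Of the others, 44 matched in replicate 3 alone, 17 in replicate 4 alone and 4 in neither. The share was 73.7% within 500 bp (odds ratio 1.39, adjusted p = 0.059, Fisher's exact test) and 74.0% among distal peaks (odds ratio 1.37, adjusted p = 0.065), so neither difference passed the threshold of 0.05. With a match distance of 100 bp the first did (75.5% against 68.9%, adjusted p = 0.040, exact test). Among the strongest 1603 peaks of the optimal list nearly every one matched in both, and the direction turned (98.2% of 166 members, against 99.4% within 500 bp and 99.1% among distal peaks).

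The members' signal was close to that of peaks at TSSs. The pooled signal had a median of 132 (85.6 to 1130), against 130 within 500 bp and 124 among distal peaks. The strongest 801 peaks of the list held 87 members or 27.4% of them (22.8 to 32.5), 27.3% of the peaks within 500 bp (odds ratio 1.01, adjusted p = 1) and 21.0% of distal peaks (odds ratio 1.42, adjusted p = 0.049, Fisher's exact test). The difference from distal peaks was lost with TSSs of protein-coding genes alone (odds ratio 1.41, adjusted p = 0.071), with the peaks of replicate 4 alone (odds ratio 1.38, adjusted p = 0.051) and with those of replicate 3 alone (odds ratio 1.23, adjusted p = 0.32, exact test).

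At the edges of the band there was no step in strength: the median signal was 131 in the 92 peaks at 401 to 500 bp, 131 in the 100 members at 501 to 600 bp, 130 in the 44 members at 901 to 1000 bp and 123 in the 47 peaks at 1001 to 1100 bp.

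For 85 of the 318 members (26.7%, 22.2 to 31.9) another optimal peak lay within 500 bp of a TSS of the nearest gene, where 27.5% of all optimal peaks over 500 bp from any TSS had one. The share among distal peaks was 27.7% (odds ratio 0.954, adjusted p = 0.89, Fisher's exact test), and the direction turned under several alternatives, none of them past the threshold, up to 36.1% against 27.6% among the strongest 1603 peaks (odds ratio 1.48, adjusted p = 0.075). Genes with both kinds of peak include CG9663, CG31635, Reph, Adf1 and InR. Neighbouring summits were common: 64 members (20.1%) had the next optimal summit within 1000 bp, compared with 14.1% of peaks within 500 bp and 9.59% of distal peaks. In 25 of these the neighbour was within 250 bp, and the closest was at 199 bp. Some of these close neighbours were summits of overlapping peaks, as for both HmgZ members. By contrast, 103 members were over 10000 bp from any other optimal peak. The distance rule bears on the shares within 1000 bp. Members lie by rule nearer than distal peaks to the sequence within 500 bp of a TSS, which held 94.9 peaks per Mb. No test was made of these shares, and they are not read as a trait of the members.

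The nearest genes numbered 308, and 15 of them were nearest to more than 1 member. The gene lncRNA:CR44366 had 3, and the 14 others had 2 each. They included HmgZ, RasGAP1, NFAT, cpo, the couch potato RNA-binding gene, and aop, the ETS repressor also called yan. Also among them were rhea, the fly talin gene, and Dhc64C, which encodes the heavy chain of cytoplasmic dynein. Many of these pairs were not separate regions. Both HmgZ members had the same interval, with summits 203 bp apart. The intervals also overlapped for RasGAP1 (summits 202 bp apart), NFAT (209 bp), Dhc64C, mlt, tou, lncRNA:CR44331 and snoRNA:Me18S-G1358a. Those of kuk, cpo, aop, rhea, CG43658 and lncRNA:CR45643 did not overlap. The nearest gene was protein-coding alone for 259 members and a noncoding RNA gene alone for 49. For 3 members it was a snoRNA gene, for 3 a tRNA gene, for 1 an snRNA gene and for 1 a pseudogene, and 2 members were equally near to starts of both protein-coding and noncoding RNA genes. The strongest in these small classes were snoRNA:lola-a (69.8 in replicate 3 and 46.3 in replicate 4), tRNA:Met-CAT-1-2 (101.0 and 66.7), snRNA:U5:38ABb (62.9 and 30.2) and CR31958 (95.03 and 69.9). The nearest genes had a median length of 8342 bp, between 3898 bp for peaks within 500 bp and 10219 bp for distal peaks, and 41.2% of members had a nearest gene with a single TSS (47.7% and 52.8%).

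The members were spread over all arms: 72 on 3R, 66 on 3L, 64 on 2L, 59 on 2R, 55 on X and 2 on the small chromosome 4. The X held 17.3% of members, against 16.2% of weaker peaks in the band. The stronger peak on chromosome 4 lay 528 bp upstream of Asator, a tau tubulin kinase relative, with 72.7 in replicate 3 and 51.0 in replicate 4.

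The core promoter motifs DRE, Motif 1 and Motif 7 were each at fewer of the members' summits than of those within 500 bp. So were CGATA and the E-box CAGCTG, while TATA and Motif 6 did not differ past the threshold. The distance rule bears on these comparisons. By rule no window of 100 bp to each side of a member summit reaches an annotated TSS. Those of the 867 peaks 0 to 100 bp from a TSS do. The lower shares are therefore not read as a trait of the members apart from their distance. Matches were counted within 100 bp of the summit, on both strands, for 22 motifs of which 2 were controls with scrambled letters, and 6 of the 44 comparisons with the other distance classes passed (13.6%) by Fisher's exact test, two-sided, adjusted over the 44. The DRE was at 2 summits, those of Stt3A and of Sumo, the SUMO gene, or 0.629% (0.173 to 2.26), against 8.19% within 500 bp (odds ratio 0.0709, adjusted p = 3.1e-07, exact test). CGATA was at 72 summits (22.6% against 38.8%, odds ratio 0.463, adjusted p = 4.2e-07, exact test), and at 22.6% and 22.0% of the windows 500 bp to the left and right of the members. Motif 1 (GTCACACT) was at none (0%, with a Wilson upper limit of 1.19%), against 5.06% (adjusted p = 6.6e-06, exact test). Motif 7 was at 4 summits, by Stt3A, lncRNA:CR45693, JIL-1 and lncRNA:CR45564 (1.26% against 7.03%, odds ratio 0.168, adjusted p = 0.00011, exact test). The E-box CAGCTG was at 22 (6.92% against 13.9%, odds ratio 0.461, adjusted p = 0.0031, exact test). Among the strongest 1603 peaks the DRE and CGATA still passed, and Motif 1, Motif 7 and the E-box did not (adjusted p = 0.18, 0.18 and 0.25, exact test). Within 50 bp of the summit Motif 7 (adjusted p = 0.060) and the E-box (adjusted p = 0.69) missed the threshold, as did the E-box with TSSs of protein-coding genes alone (adjusted p = 0.093, exact test). None of these 5 motifs differed from distal peaks past the threshold, where the shares were 0.257%, 21.8%, 0.514%, 1.54% and 6.85% in the same order.

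These shares fell most within the first 200 bp. The DRE was at 12.8% of summits 0 to 100 bp from a TSS, 6.00% at 101 to 200 bp and 0.980% over 200 and up to 300 bp. CGATA fell likewise from 48.2% to 34.4% and 22.1%, and then ran from 17.2% to 31.7% over the bins of the band. Against the 421 peaks over 200 and up to 500 bp alone, a comparison chosen after seeing the data, none of the 44 passed: the DRE was at 0.629% of members and 0.9501% of these peaks (odds ratio 0.660, adjusted p = 0.99, exact test), and CGATA at 22.6% and 23.8% (odds ratio 0.940, adjusted p = 0.99). Motif 7 was at 1.26% and 2.85% of the summits (odds ratio 0.434, adjusted p = 0.84, exact test). Around the members' own nearest TSSs the DRE was at 3.46%, against 7.84% of the starts of all protein-coding genes. Motif 1 was at 5.66% against 5.68%. These sets are not alike, as the nearest gene was protein-coding for 261 of the 318 members.

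GAGA was the 1 motif past the threshold against distal peaks (24 summits, 7.55% against 3.25%, odds ratio 2.43, adjusted p = 0.010, Fisher's exact test). The share was 5.64% within 500 bp, where the test did not pass (adjusted p = 0.70, exact test). It was no higher at the summit than beside it: windows of the same length centred 500 bp to the left and right of the members held it at 10.1% and 10.7%. The nearest TSSs held it at 12.9% and the starts of all protein-coding genes at 3.69%. The difference from distal peaks was lost among the strongest 1603 peaks (5.42% against 3.95%, adjusted p = 0.80), with replicate 4 alone (6.87% against 4.23%, adjusted p = 0.36), with members over 600 bp away alone (7.34% against 3.25%, adjusted p = 0.053) and within 50 bp of the summit (2.83% against 1.46%, adjusted p = 0.65, exact test).

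The remaining motifs did not differ past the threshold from either class; among the more frequent were CCAAT at 30.5% of member summits, TATA (searched as TATAAA) at 26.1%, Pho (searched as GCCATNT) at 14.2% and GATA (searched as AGATAA) at 13.2%. The starts of all protein-coding genes held these at 34.5%, 29.2%, 12.1% and 10.8%. The others were Zelda (CAGGTAG), Motif 6 (GTATNTTT), the E-box CACATG, Mef2, a CA repeat (CACACACA), E2F (TTTCNCGC), STAT (TTCNNNGAA), Tcf (searched as CTTTGAT), Su(H) (searched as GTGGGAA) and a homeodomain site (TTAATTAA), at 0.943% to 10.1% of summits. The controls TAGACTAT and AAGTAA, with the letters of the DRE and of the GATA site in another order, were at 0.629% and 17.9%. At 38 summits none of the 22 was found.

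**Figure D5:**
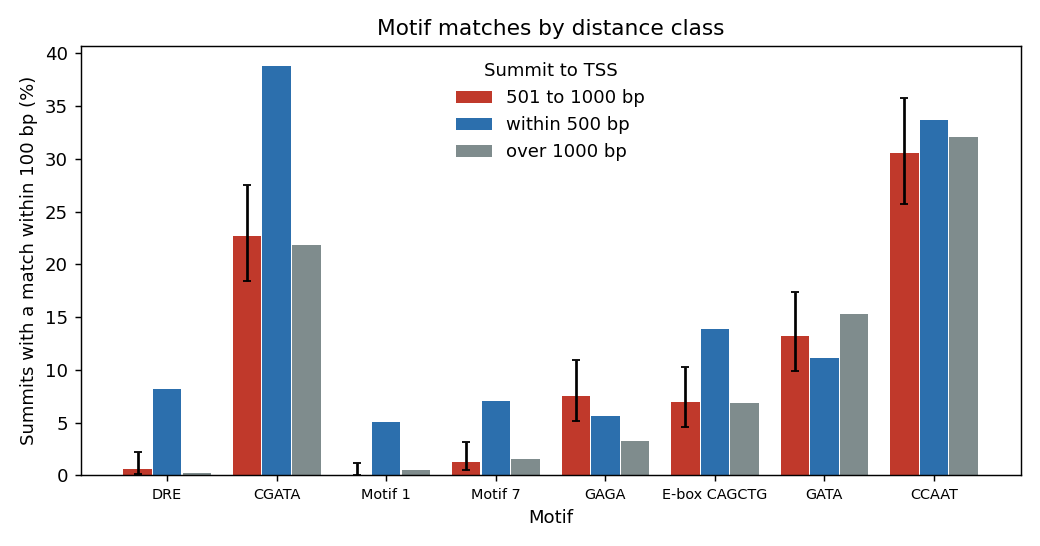
Share of summits (%) with a match within 100 bp for 8 motifs, in the 318 peaks 501 to 1000 bp from a TSS (red, with 95% Wilson intervals), the 1721 peaks within 500 bp (blue) and the 1168 distal peaks (grey). The DRE stands at 0.629%, 8.19% and 0.257% and CGATA at 22.6%, 38.8% and 21.8% in that order, and GAGA at 7.55%, 5.64% and 3.25%.

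The summits were rich in A and T compared with the sequence beside them. The median GC content within 100 bp of the summit was 37.8%, against 42.8% in the windows 500 bp to either side, 48.3% at the weaker peaks of the band and 41.8% at those weaker peaks that lie in introns and intergenic sequence. Peaks within 500 bp had 38.3% and distal peaks 36.3%.

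The words ACACTG and ACAGTG were picked, after seeing the data, on the 2889 optimal peaks that are not members: apart from words of A and T only, they had the largest excess of all words of 6 letters over the windows 500 bp to either side. At least 1 of them was at 103 of 318 member summits (32.4%, 27.5 to 37.7) and at 15.7% of the windows to the left and 15.7% of those to the right. Members came close to the peaks the words were picked on, 30.97% within 500 bp and 34.6% among distal peaks. Weaker peaks of the band had one at 17.9% (16.7 to 19.2), and at 21.0% in introns and intergenic sequence. Over 4 equal sets of the members by strength, from strongest to weakest, the shares were 36.7%, 28.8%, 31.6% and 32.5%. No test was made of these shares.

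Members were nearest to genes of 14 of the 23 lists of developmental and housekeeping genes. Over all protein-coding genes, 254 of 13945 (1.82%) were nearest to a member. Of 32 RNA-binding and splicing genes, 6 were (18.8%): mub, brat, elav, Hrb27C, pAbp and ps. The share was also high in the other distance classes: 31.25% had an optimal peak within 500 bp of a TSS, against 10.9% of all protein-coding genes. Nearest to a distal peak were 15.6%, against 4.93%. The peak of brat, a translational repressor and neural tumour suppressor, had 228 in replicate 3 and 124 in replicate 4. The peak of elav, the neuronal splicing regulator, had 113 and 73.4 and was equally near to lncRNA:enrr. Hrb27C, an hnRNP gene, had 109 and 50.3, pAbp, which encodes the poly(A)-binding protein, 66.8 and 57.0, and ps, the fly Nova relative, 79.8 and 40.005.

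Of 44 cell adhesion and cytoskeleton genes 6 were nearest to a member (13.6%), while 36.4% had an optimal peak within 500 bp and 20.5% were nearest to a distal peak. The strongest, upstream of ed, an immunoglobulin-domain adhesion gene, had 145 in replicate 3 and 64.0 in replicate 4. The others were rhea, with a peak upstream of one of its TSSs and a peak downstream of another, crb, which sets apical polarity, shot, a spectraplakin gene, scrib and dia, a formin gene. These had 52.8 to 82.1 in replicate 3 and 25.6 to 54.8 in replicate 4.

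Of 23 EGFR, Ras and MAPK genes 3 were nearest to a member (13.0%): Raf, the kinase below Ras, with 191 and 159 in its 5′ untranslated sequence, sty, which encodes the inhibitor Sprouty, with 72.7 and 54.0, and aop, with 53.6 and 62.3 at one peak and 68.5 and 31.4 at the other. RasGAP1 was not in the list. Of the 23 genes 17.4% had an optimal peak within 500 bp and 34.8% were nearest to a distal peak. Of 19 TGF-beta genes 2 were nearest to a member, while 10.5% had a peak within 500 bp and 26.3% were nearest to a distal peak. The 2 were Mad, the Smad that carries the Dpp signal, with 246 and 187, and brk, the repressor of Dpp targets, with 99.9 and 77.4. The 26 neural genes held 3, brat and elav again and Sox21b, with 57.3 and 31.4.

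The 50 chromatin regulators held 2, ph-d, a Polycomb group gene, with 64.1 and 71.4, and osa, a Brahma complex subunit, with 68.6 and 25.3. Of these regulators 36% had an optimal peak within 500 bp and 10% were nearest to a distal peak. Lists with 1 gene each were those of insulator proteins (Trl, the GAGA factor gene, with 72.0 and 43.6), dorsoventral and mesoderm genes (ush, equally near to lncRNA:CR46258, with 79.6 and 69.7), Notch signalling (mam, with 55.9 and 49.8), Wnt and Hedgehog signalling (sgg, with 74.7 and 58.5), JAK-STAT and Hippo signalling (ds, with 165 and 113), cell cycle (Cdk4, with 75.4 and 51.8), heat shock proteins (Hsc70-3, with 58.6 and 30.6) and oxidative phosphorylation (COX7AL2, with 42.5 and 44.6). The single gene was from 1.15% of its list (oxidative phosphorylation, 87 genes) to 5.56% (Notch signalling, 18 genes), where 1.82% of all protein-coding genes were nearest to a member. In these lists 11.5% to 44.4% of genes had an optimal peak within 500 bp, and 3.45% to 31.25% were nearest to a distal peak.

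There were 9 lists in which no gene was nearest to a member. None of the 93 cytoplasmic ribosomal protein genes was, which allows a share of up to 3.23% (3 genes of the list). Of these genes 74 (79.6%) had an optimal peak within 500 bp of a TSS, as did 10.9% of all protein-coding genes. None of the 29 segmentation genes was, which allows up to 10.3%, and 11 of them (37.9%) were nearest to a distal peak, as were 4.93% of all protein-coding genes. The others were the mitochondrial ribosomal proteins (73 genes), translation factors (54), Hox genes (8), nuclear receptors and ecdysone genes (24), muscle structural genes (22), cuticle proteins (122) and glycolysis enzymes (14). Over the 9 lists this limit ran from 2.46% to 37.5%. All limits lay above the 1.82% of all protein-coding genes nearest to a member, so none of these lists is set apart from that share. These counts carry no test, several genes stand in more than 1 list.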

How the data were processed

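Per the labels and the deposited readme files, the authors called relaxed peaks for each replicate and for both replicates pooled, against 1 shared control, and made an optimal IDR list from them. Which aligner, caller and IDR threshold were used is not stated in the labels or readme files. The deposited signal column of the dm6 lists ranked the peaks, and the deposited summit offset, another number of the authors, placed them. Each relaxed list holds 30000 peaks, and the optimal list is the strongest 3207 of the pooled one. No read counts are given, so depth is unknown, and intervals cover the counting of peaks only; peaks are not replicates of a condition.

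Distances were taken to 23581 TSSs of 18164 genes (Ensembl release 115; transposable elements left out). Summits within 200 bp matched. A summit was assigned, in order, to 5′ or 3′ untranslated sequence, coding exon, noncoding exon, intron or intergenic sequence. Two-sided Fisher's exact tests between distance classes were adjusted by Benjamini-Hochberg (Python 3.11.15, scipy 1.17.1) and checked on simulated data; such p-values treat peaks as independent. Named genes are those nearest to the 20 strongest members and the strongest of each arm, location class, biotype and gene list; the others were named after their values were seen. The members, 23 gene lists and motifs were chosen with earlier results of these data known. The dm3 lists were not used here. Sequences are shown for 6 members; that of 1 more among the strongest is not reported here.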

Additional observations from a re-analysis of the deposited data

How the results depend on the processing

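Alternatives changed the TSS set (protein-coding or RefSeq gene starts), the band (over 600 bp only), the peaks used, the match distance, the motif window, the distance at the start and the comparison set; 2 were chosen after seeing the data. The share kept against peaks within 500 bp stayed past the threshold in the 7 alternatives run on it, and the coding exon share in 8, at 0.0052 to 0.0333. All values are odds ratios, with Fisher's exact test. The share kept against distal peaks turned in the band over 600 bp (0.988, adjusted p = 0.91, exact test) and was 1.20 and 1.24 without replicate 3 and 4. Agreement against peaks within 500 bp was 1.39 at a match distance of 100 bp (adjusted p = 0.040, exact test) and 0.310 among the strongest 1603 peaks. Against distal peaks it was 0.492 there. It was 1.19 and 0.898 when peaks were taken from replicate 4 alone and from replicate 3 alone. Matches were still sought in both replicates, and each peak matched itself in its own. These 2 values are therefore no check on agreement. The share among the strongest peaks, against peaks within 500 bp, was 0.995 in that subset, and 0.978 and 0.905 without replicate 3 and 4; against distal peaks it was 1.41 with protein-coding TSSs (adjusted p = 0.071, exact test), and 1.38 and 1.23 without replicate 3 and 4. A second peak at the start gave 1.13 with protein-coding TSSs, 1.09 over 600 bp, 1.48 among the strongest 1603 (adjusted p = 0.075, exact test), and 1.13 and 1.02 without replicate 3 and 4. The upstream share gave 1.30 in introns and intergenic sequence only. Of 44 motif comparisons, 2 passed among the strongest 1603 peaks, 3 with a window of 50 bp and 0 against peaks over 200 bp away. The causes were not tested. No paired analysis was possible because there is only 1 group.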
